A study of Homo sapiens with 16 samples.

Results

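Binding of 5 nuclear proteins was examined at 6 genes that are widely used as readouts of Wnt signalling: AXIN2, LGR5, ASCL2, SOX9, EPHB2 and CCND1. Every peak of 12 deposited lists was taken that overlapped a fixed window around 1 of these genes. The windows together covered 1060 kb of the human genome build hg18 and caught 131 of the 146596 listed peaks. The choice of windows used gene names and positions only and no measured value. No hg18 gene annotation was used here, so a peak is placed in the window of a gene and not in its promoter, exons or introns.

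The Wnt pathway works through β-catenin, which enters the nucleus and switches on genes together with factors of the TCF/LEF family. Without a Wnt signal, a complex that contains APC and AXIN proteins marks β-catenin for destruction. In the intestine the pathway maintains the stem cells at the crypt base. Most colon cancers, the LoVo line among them, carry APC mutations that leave the pathway on without a signal.

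LoVo is an established human colon adenocarcinoma line. One group of cultures was held in early S phase by thymidine at 2 mM given in a first block of 12 h and, after 8 h in normal medium, in a second block of 12 h. The other was held in M phase by a thymidine block of 12 h, at the same dose, and then 8 h in nocodazole at 200 ng/ml, a drug that prevents the mitotic spindle from forming. How completely the cells were synchronised was not measured in these files. In each phase ChIP-seq was done for RAD21, CTCF, HNF4A, KLF5, MYC and the histone H3, with IgG from rabbit as the control and, for CTCF, IgG from goat. There was 1 library per target and phase, so the phases cannot be compared against a spread between samples, and no p-value was computed. HNF4A is a nuclear receptor of gut epithelium, KLF5 a zinc-finger factor of dividing crypt cells, and MYC a transcription factor of cell growth whose own gene is a Wnt target. RAD21 is part of the cohesin ring, while CTCF binds DNA through zinc fingers and marks places where cohesin gathers.

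Library sizes after removal of repeated tags ran from 7362169 tags (KLF5, M phase) to 16813394 tags (HNF4A, M phase). The M-phase library was larger for HNF4A, MYC, RAD21 and CTCF, by factors of 1.38, 1.65, 2.19 and 1.89, and smaller for KLF5, by a factor of 0.712. A tag is 1 mapped read. The tags given for single peaks are raw, so the counts of S and M phase at a site differ by library size as well. Fold enrichment is the authors' value of tags over the local background from IgG, and is used only to order or describe peaks of the same list. Intervals are 95% intervals that cover counting error only.

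In S phase the 5 proteins had 80 listed peaks in the windows, and in M phase 46. The 3 transcription factors together went from 26 peaks to 5. From S to M phase HNF4A went from 12 peaks to 2, KLF5 from 5 to 2, and MYC from 9 to 1. RAD21 went from 32 peaks to 25 and CTCF from 22 to 16. The whole lists shortened in much the same way, from 15437 peaks to 2413 for HNF4A, 5928 to 2118 for KLF5, 11941 to 1974 for MYC, 27122 to 22966 for RAD21 and 28474 to 24391 for CTCF. Histone H3, the chromatin control, went from 5 peaks to 0, against 3290 to 542 over its lists, and none of the 5 overlapped a peak of another protein.

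**Figure D1:**
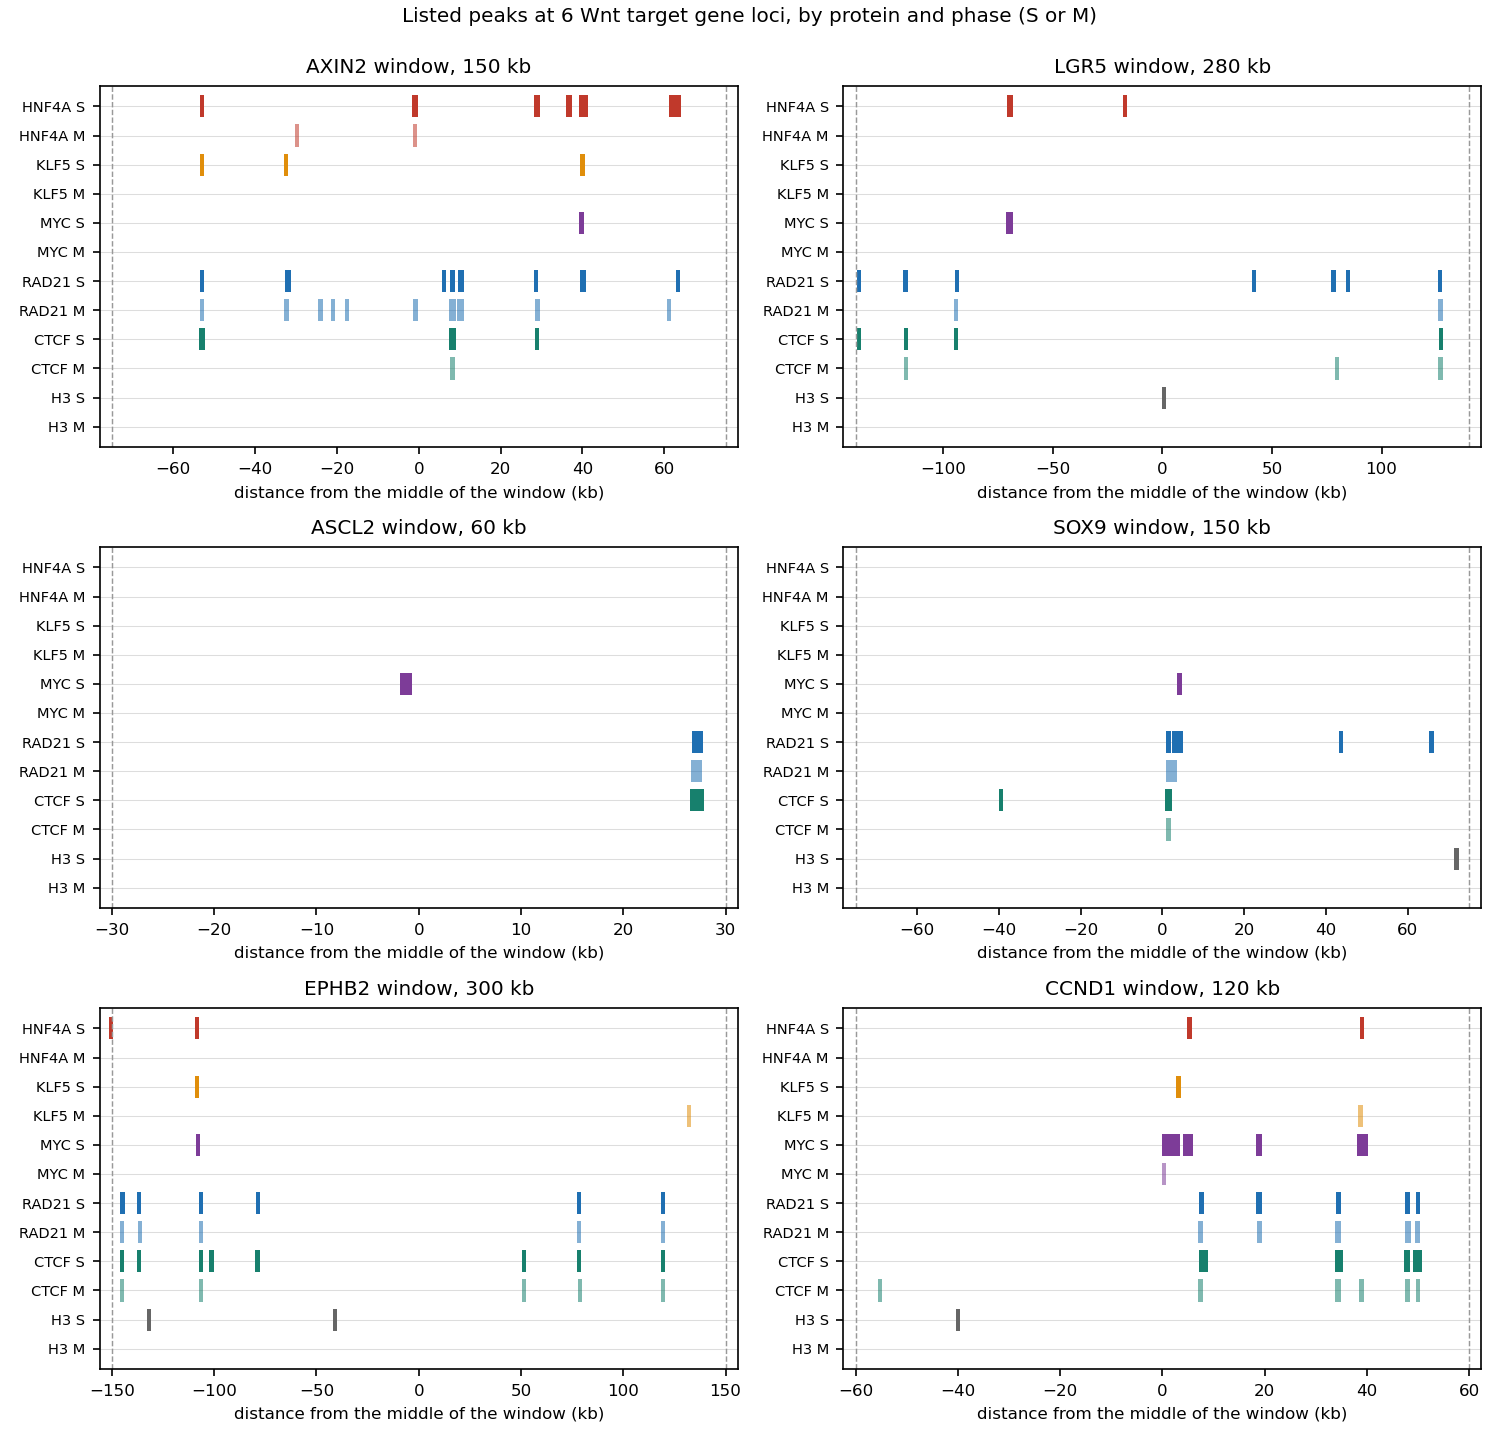
Position of all listed peaks in the 6 windows, drawn as bars on the distance from the middle of the window in kb, with 1 row per target and phase (S phase in full colour, M phase pale) and dashed lines at the window edges; bars are widened where a peak would be too thin to see. The 3 factors fill the upper rows in S phase, above all at AXIN2 and CCND1, and have only 5 bars in M phase, whereas most RAD21 and CTCF bars have a partner in the row beneath.

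The windows were not equally occupied. In S phase the 5 proteins had 14 peaks per 100 kb at AXIN2 and 13.3 at CCND1, against 5 at LGR5, 5 at ASCL2, 5.33 at SOX9 and 6 at EPHB2. In M phase the same 2 loci led, with 10.8 peaks per 100 kb at CCND1 and 8.67 at AXIN2, and the others lay between 1.67 (ASCL2) and 3.67 (EPHB2). At AXIN2 only the RAD21 and CTCF peaks starting at 60982378 and 60982724 had a false discovery rate (FDR) under 5% in the authors' values. The other M-phase RAD21 peaks there lay at 5.69 to 11.42% and the HNF4A peaks at 100%. Among peaks under 5% alone, CCND1 still had the most per 100 kb, but AXIN2 had no more than any other locus. HNF4A peaks were present at 4 of the 6 loci in S phase, KLF5 peaks at 3, and MYC peaks at all 6. ASCL2 and SOX9 had no HNF4A and no KLF5 peak in either phase.

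**Figure D2:**
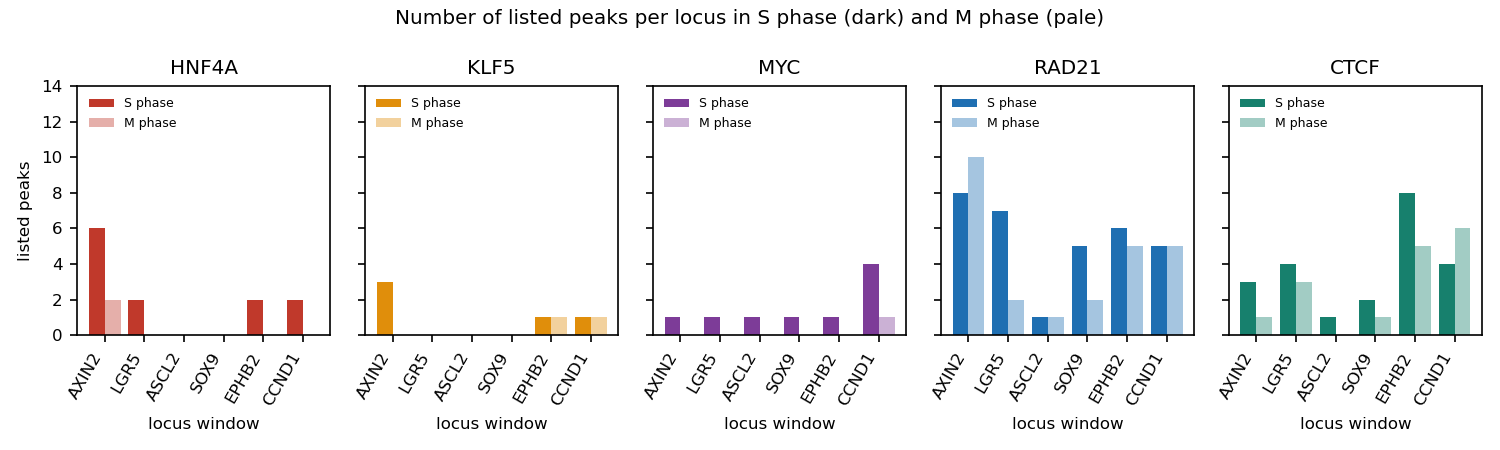
Number of listed peaks (vertical axis) in each locus window (horizontal axis), 1 panel per protein, with S phase dark and M phase pale. M-phase bars exceed S-phase bars only for RAD21 at AXIN2, 10 against 8, and for CTCF at CCND1, 6 against 4. Counting only peaks with an FDR under 5%, neither excess remained. The CTCF peaks listed at CCND1 in M phase only held 15 and 24 tags, at an FDR of 11.4 and 11.83%. The M-phase CTCF library was 1.89 times the size of the S-phase one. The part of that depth in the difference was not tested.

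In S phase each of the 6 targets had more peaks per Mb in the windows than over the effective genome of 2750 Mb, though not always beyond counting error. RAD21 had 30.2 peaks per Mb (exact Poisson interval 20.6 to 42.6), against 9.86 for its whole list, and CTCF 20.8 (13.0 to 31.4), against 10.4. HNF4A had 11.3 (5.85 to 19.8), against 5.61. For MYC, at 8.49 (3.88 to 16.1) against 4.34, and KLF5, at 4.72 (1.53 to 11.01) against 2.16, the interval covered the value of the list. H3 had 4.72 (1.53 to 11.01), against 1.20. In M phase the RAD21 interval alone lay above the list, at 23.6 (15.3 to 34.8) against 8.35. CTCF had 15.1 (8.63 to 24.5), against 8.87, HNF4A 1.89 (0.228 to 6.82), against 0.877, KLF5 1.89 (0.228 to 6.82), against 0.770, and MYC 0.943 (0.0239 to 5.26), against 0.718. H3 had 0 (0 to 3.48), against 0.197. The windows were drawn around genes, and whether other genes show the same density was not tested.

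A peak was called kept when the other phase had a peak of the same protein sharing 1 bp or more with it. Among the S-phase factor peaks, 2 of 26 were kept. HNF4A kept 1 of 12 (8.33%, exact Clopper-Pearson interval 0.211 to 38.5%), where 12.3% of its whole list was kept. MYC kept 1 of 9 (11.1%, 0.281 to 48.2%), against 12.6% of its list. KLF5 kept 0 of 5 (0 to 52.2%), against 11.4%. Each of these 3 intervals covers the share of the whole list. RAD21 kept 20 of 32 peaks (62.5%, 43.7 to 78.9%), against 69.7% of its list, and CTCF 13 of 22 (59.1%, 36.4 to 79.3%), against 69.4%. H3 kept 0 of 5, against 2.83%.

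**Figure D3:**
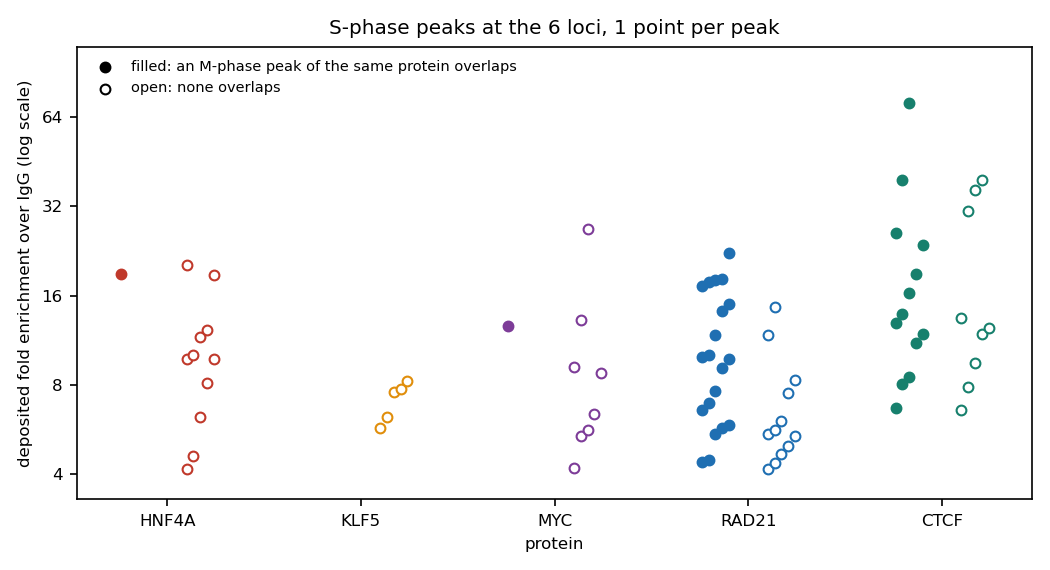
Deposited fold enrichment over IgG (vertical axis, log scale) of every S-phase peak in the windows, by protein, filled where an M-phase peak of the same protein overlapped and open where none did. Only 2 factor points are filled, HNF4A at 18.84-fold and MYC at 12.59-fold, and 3 open CTCF points lie above 30-fold.

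The kept HNF4A site was not the strongest of its kind in the windows. It lay at AXIN2, on chromosome 17 from 60973282 to 60974725, where S-phase cells gave 71 tags at 18.84-fold and M-phase cells 37 tags at 8.83-fold. Per 1000000 library tags, called scaled tags here, these are 5.83 and 2.20, a ratio of 0.378 (exact conditional interval 0.247 to 0.570). The M-phase peak was narrower, 959 bp against 1444 bp, and lay wholly inside the S-phase peak with its summit 60 bp away. An S-phase HNF4A peak of more tags in the same window, 112 tags at 20.23-fold from 61014275 to 61016387, had no M-phase HNF4A peak, nor had the 89-tag peak at 18.82-fold from 61036132 to 61039213. These are the 2 HNF4A members among the top 10% of their list by MACS score, of which 63.4% were kept over the whole list. The interval for 0 of 2, 0 to 84.2%, covers that share. Splitting by the top 10% was chosen after the values had been seen.

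AXIN2 encodes a scaffold of the destruction complex and is a negative feedback target of the pathway. Its window was the HNF4A-rich one, with 6 of the 12 S-phase HNF4A peaks and 3 of the 5 KLF5 peaks. All 3 factors and RAD21 met at 1 place, from 61014263 to 61016387. There HNF4A held 112 tags, KLF5 34 tags at 7.78-fold, MYC 26 tags at 5.65-fold and RAD21 28 tags at 6.03-fold, with no CTCF peak. The KLF5 and RAD21 summits lay 6 bp apart, the HNF4A and MYC summits 53 bp, and the HNF4A and RAD21 summits 121 bp. In M phase no peak of any of the 5 proteins was listed at this cluster.

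A second cluster of 4 proteins in the AXIN2 window behaved differently. From 60921287 to 60922860 it held CTCF with 30 tags at 13.42-fold, RAD21 with 23 tags at 6.93-fold, HNF4A with 29 tags at 9.81-fold and KLF5 with 17 tags at 5.71-fold. In M phase RAD21 alone was listed there, with 25 tags at 7.24-fold. RAD21 was likewise the only protein listed in M phase from 61003246 to 61004598, where S-phase cells had HNF4A (42 tags), CTCF (32 tags) and RAD21 (14 tags). The CTCF peak of highest fold enrichment at AXIN2, from 60982343 to 60984183, gave 121 tags at 13.82-fold in S-phase cells and 61 at 24.93-fold in M-phase cells. The RAD21 peak on it, the RAD21 peak of highest fold enrichment in this window in both phases, gave 48 tags at 9.78-fold and 62 at 12.46-fold. Scaled tags were lower in M phase for both proteins, with ratios of 0.267 for CTCF and 0.589 for RAD21. The remaining KLF5 peak, 23 tags at 8.27-fold from 60942032 to 60943080, overlapped a RAD21 peak that was kept.

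RAD21 had more peaks in M phase than in S phase at AXIN2, 10 against 8. Of the 10, all but that from 60982378 to 60983983 had an FDR above 5%. All 5 RAD21 peaks of the 6 windows that were listed in M phase only lay here. They held 14 to 35 tags at 5.16- to 9.58-fold, with an FDR of 6.93 to 11.42%, and none overlapped an M-phase CTCF peak. The M-phase RAD21 library had 2.19 times the tags of the S-phase library, and the part of that depth in these peaks was not tested. Of the 5, 2 lay on S-phase HNF4A peaks, 1 of them with its summit 2149 bp from the HNF4A summit. Over the whole list 24.4% of the RAD21 peaks found in M phase only lay on an S-phase factor peak. The other, 35 tags from 60973536 to 60974825, overlapped the kept HNF4A site, sharing 919 bp with the M-phase HNF4A peak, and its summit was 124 bp from that of the M-phase HNF4A peak. The remaining M-phase HNF4A peak at AXIN2, 16 tags at 8.37-fold from 60945042 to 60945609, had no S-phase counterpart among the 5 proteins.

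LGR5 encodes the R-spondin receptor that marks intestinal stem cells. Its window had no KLF5 peak, and its factor binding was centred on 1 cluster from 70118825 to 70121679 on chromosome 12. MYC held 113 tags there at 8.80-fold over 2855 bp, in the top 6.34% of its list by score, and HNF4A 78 tags at 4.17-fold. The summits lay 1457 bp apart, so overlap here joins separate maxima. A second HNF4A peak, 59 tags at 10.11-fold, lay alone from 70171983 to 70173689. None of these 3 factor peaks was kept.

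The cohesin and CTCF sites of LGR5 had all outcomes. At the site from 70316094 to 70317834 both proteins were listed in both phases, CTCF with 65 and then 51 tags, RAD21 with 25 and then 46. The ratio of scaled tags there, M over S, was 0.416 (0.282 to 0.610) for CTCF and 0.839 (0.505 to 1.43) for RAD21. At the site from 70072018 to 70073649 CTCF was kept, with 57 tags and then 37 at 17.53-fold, the highest M-phase value for CTCF in this window, and RAD21 was listed in S phase only, with 35 tags at 14.67-fold. At the site from 70094993 to 70096716 the reverse was found. RAD21 gave 52 tags at 17.21-fold and, in M-phase cells, 67 at 14.28-fold, whereas CTCF gave 106 tags at 36.32-fold and no M-phase peak. In S phase these were the RAD21 and the CTCF peak of highest fold enrichment in the window, and that of RAD21 also was in M phase. At the site from 70050774 to 70052172 neither was listed in M phase. The 3 RAD21 peaks of LGR5 without CTCF, of 13 to 18 tags, were listed in S phase only. A CTCF peak of 16 tags at 9.14-fold from 70269260 to 70269985 was listed in M phase only.

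ASCL2 encodes a helix-loop-helix factor of the intestinal stem cell, and its 60 kb window, the shortest, had the fewest listed peaks, 4. Per 100 kb it equalled LGR5 in S phase, with 5 peaks of the 5 proteins. It had 1 MYC peak, 19 tags at 4.20-fold on chromosome 11 from 2248132 to 2249358, among the weakest of its list (top 91.7% by score) and not kept. The only other site, from 2276497 to 2277927, held RAD21 with 39 tags at 22.24-fold and CTCF with 37 tags at 30.88-fold in S phase. This was the S-phase RAD21 peak of highest fold enrichment over all 6 windows and the only one in the top 10% of its list by score. In M phase RAD21 kept 34 tags at 13.27-fold and CTCF was not listed. The RAD21 ratio of scaled tags, M over S, was 0.398 (0.244 to 0.647), the lowest of the 20 kept RAD21 sites.

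SOX9 encodes an HMG-box factor of the crypt base and of Paneth cells. Binding in its window was gathered in 1 cluster on chromosome 17 from 67625607 to 67630113, with CTCF (60 tags at 18.95-fold), 3 RAD21 peaks and MYC (32 tags at 6.39-fold). The RAD21 peak at CTCF gave 32 tags at 11.74-fold in S-phase cells and 63 at 17.85-fold in M-phase cells, and CTCF kept 35 tags at 12.47-fold. The next RAD21 peak, of 21 tags, was kept with 44 tags. In scaled tags the ratios of M to S phase at these RAD21 peaks were 0.898 (0.578 to 1.42) and 0.956 (0.556 to 1.69). The third, 32 tags from 67628607 to 67630113, lay on the MYC peak with its summit 87 bp away, and neither RAD21 nor MYC was listed there in M phase, although the M-phase peak of the neighbouring RAD21 site ended at 67628605, just before it began. The other SOX9 peaks, 2 of RAD21 and 1 of CTCF with 9 to 23 tags, were each a single protein in S phase only. An H3 peak of 48 tags at 7.18-fold, from 67696215 to 67697537, overlapped no other peak.

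EPHB2 encodes a receptor tyrosine kinase that sorts cells along the crypt. The only cluster of all 5 proteins in the 6 windows lay here, on chromosome 1 from 22900977 to 22904697. The 3 factors met at its left side, HNF4A with 26 tags at 12.23-fold, KLF5 with 14 tags at 6.25-fold and MYC with 22 tags at 9.22-fold. The HNF4A and KLF5 summits lay 22 bp apart. RAD21 (20 tags at 5.74-fold) and CTCF (94 tags at 6.68-fold) lay beside them and did not overlap them. In M phase both RAD21 (52 tags at 23.59-fold) and CTCF (40 tags at 8.19-fold) were listed and none of the factors was. This M-phase RAD21 peak was the one of highest fold enrichment in the windows.

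Cohesin and CTCF sites made up most of the rest of the EPHB2 window, and 5 of its 6 RAD21 peaks and 5 of its 8 CTCF peaks were kept. The RAD21 peak of highest fold enrichment in S phase, from 23129203 to 23130049, held 36 tags at 18.11-fold, and 37 at 12.44-fold in M phase. The CTCF peak of highest fold enrichment, from 22872507 to 22874351, gave 81 tags at 39.34-fold and was not listed in M phase, although RAD21 was listed in both phases there with 43 and 72 tags. For RAD21 the ratio of scaled tags there, M over S, was 0.764 (0.516 to 1.14). In M phase the leading CTCF peak was that from 23088154 to 23089101, with 29 tags at 13.20-fold. A second HNF4A peak, 30 tags at 8.09-fold from 22858836 to 22860200, reached across the edge of the window. An M-phase KLF5 peak of 10 tags at 11.68-fold, from 23141804 to 23142415, overlapped no S-phase peak. The 2 H3 peaks of the window held 29 tags at 8.95-fold, from 22877502 to 22878852, and 14 tags at 11.45-fold, from 22968759 to 22969549. The H3 peaks of the LGR5 and CCND1 windows were of like size, 21 tags from 70190253 to 70191180 and 17 tags from 69119611 to 69120468.

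CCND1 encodes cyclin D1, which carries cells from G1 into S phase. Its window was the MYC-rich one, with 4 of the 9 S-phase MYC peaks. A peak of 125 tags at 12.59-fold spread over 3696 bp on chromosome 11 from 69159837 to 69163532, and a further 51 tags at 13.26-fold followed from 69164011 to 69166038. KLF5 (21 tags at 7.55-fold) and HNF4A (21 tags at 9.81-fold) lay at the right edge of the first and inside the second, and the cluster had no RAD21 or CTCF peak. The broad peak, the MYC peak of most tags in the windows, was the only one that was kept. Its M-phase peak held 20 tags at 7.72-fold over 845 bp with the summit 29 bp from that of S phase. Scaled tags went from 13.5 to 1.30, a ratio of 0.0968 (0.0572 to 0.156). Per kb of called peak the ratio was 0.423, since the M-phase peak covered only a small part of the S-phase peak. Under a rule that both peaks share 50% of their length this site was not kept.

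The MYC peak of highest fold enrichment in all 6 windows, 63 tags at 26.75-fold from 69198136 to 69200137, was not kept. In S phase HNF4A lay on it, with 14 tags at 6.22-fold and the summit 53 bp away. In M phase neither was listed, and KLF5 (10 tags at 12.35-fold) and CTCF (24 tags at 8.12-fold) were listed there, where neither had an S-phase peak. This CTCF summit was 35 bp from the S-phase MYC summit. The fourth MYC peak, 18 tags from 69178379 to 69179468, coincided with a RAD21 peak that was kept. Among the 3 MYC members in the top 10% of the list by score 1 was kept (33.3%, 0.840 to 90.6%), against 55.2% of all such MYC peaks. The interval covers that share, and the split was chosen after the values had been seen.

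All 5 RAD21 peaks and all 4 CTCF peaks of the CCND1 window were kept. The leading RAD21 peak in S phase, from 69194036 to 69194820, held 27 tags at 18.14-fold, and 55 at 17.81-fold in M phase. Its ratio of scaled tags, M over S, was 0.929 (0.576 to 1.53). The leading CTCF peak, from 69208971 to 69210755, held 92 tags at 71.07-fold, the highest fold enrichment of the S-phase CTCF peaks in the windows, and 38 tags at 26.40-fold in M phase. The CTCF peak at the site of the leading RAD21 peak gave 80 tags at 11.84-fold in S-phase cells and 53 at 30.46-fold in M-phase cells, which led the M-phase CTCF peaks. The RAD21 peak on the CTCF peak of highest fold enrichment had the highest M-phase fold enrichment of RAD21 in the CCND1 window, with 69 tags at 20.07-fold. A CTCF peak of 15 tags at 12.18-fold from 69104460 to 69105119 was listed in M phase only, with an FDR of 11.4%. For the 24-tag CTCF peak on the MYC site, also listed in M phase only, the FDR was 11.83%.

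The 5 M-phase factor peaks had a high FDR in the authors' values but lay near the middle of their lists by score. They ranked in the top 34.6 and 54.4% for HNF4A, 45.7 and 55.6% for KLF5, and 63.5% for MYC. Their FDR was 100% for both HNF4A peaks and the MYC peak, and 17.65 and 21.78% for the KLF5 peaks, so that 0 of the 5 were under 5%. Over the whole M-phase lists 0% of 2413 HNF4A peaks were under 5%, as were 18.7% of the KLF5 and 4.36% of the MYC peaks. For RAD21 14 of the 25 M-phase members were under 5%, against 62.3% of the list, and for CTCF 5 of 16, against 36.6%. The M-phase rabbit IgG control held 6875106 tags, fewer than each of these libraries, and the goat IgG control of CTCF 4222390. In S phase the rabbit control held 10753369 tags, more than the KLF5, MYC and RAD21 libraries, and the goat control 3658103. The part of control size in the FDR and the counts was not tested. The labels attach to the M-phase rabbit IgG library a peak number, 2118, that equals the number of M-phase KLF5 peaks. Whether these 2 libraries were exchanged was not tested. Seen from M phase, 1 of 2 peaks of HNF4A, none of 2 for KLF5 and 1 of 1 for MYC lay where that factor had a peak in S phase, against 79.9%, 32.3% and 76.3% of the whole lists. For RAD21 this was 20 of 25 (80.0%), against 82.0%, and for CTCF 13 of 16 (81.3%), against 82.8%.

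RAD21 was kept at a larger share of its sites with CTCF than without, in the windows and in the whole list. Of the 32 S-phase RAD21 peaks, 19 overlapped CTCF (59.4%, 40.6 to 76.3%), against 76.2% of the list. Of these, 16 were kept (84.2%, 60.4 to 96.6%), against 81.2% of the list. Of the 13 without CTCF, 4 were kept (30.8%, 9.09 to 61.4%), against 33.0%. The 13 lay at AXIN2 (5 peaks), SOX9 (4), LGR5 (3) and CCND1 (1), and EPHB2 and ASCL2 had none. The RAD21 peaks that were not kept had a median of 16 tags and 5.55-fold, against 25.5 tags and 9.85-fold for those that were. In M phase 11 of 25 RAD21 peaks overlapped CTCF (44.0%, 24.4 to 65.1%), against 71.4% of the list. Of the 14 others, 9 were at AXIN2.

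CTCF at these loci was mostly at cohesin. Of the 22 S-phase CTCF peaks, 19 overlapped RAD21 (86.4%, 65.1 to 97.1%), against 71.4% of the list, and of 16 in M phase 11 did (68.8%), against 67.6%. Of the 19, 12 were kept as CTCF peaks (63.2%, 38.4 to 83.7%), against 79.5% of the list, and of the 3 without RAD21 1 was, against 44.1%. RAD21 and CTCF summits lay a median of 61 bp apart at the 19 S-phase sites and 47 bp at the 11 M-phase sites, against 48 and 37 bp over the lists.

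Some of the strongest CTCF sites of the windows were missing from the M-phase list while RAD21 was listed there. Of the 22 S-phase CTCF members, 3 were in the top 10% of the list by score (10.0% of the list by construction). That at CCND1 was kept and the 2 others were not (33.3%, 0.840 to 90.6%), where 98.3% of all CTCF peaks in the top 10% were. This split too was chosen after the values had been seen, and it rests on 3 peaks. For the 106-tag peak at LGR5 the nearest M-phase CTCF peak lay 21726 bp away, and for the 81-tag peak at EPHB2 it lay 7056 bp away. The M-phase RAD21 summit was 7 bp from the S-phase CTCF summit at LGR5 and 10 bp from it at EPHB2. At ASCL2, where the 30.88-fold CTCF peak was not listed in M phase either, this distance was 32 bp. Of the 16 S-phase CTCF members with an M-phase RAD21 peak, 11 had an M-phase CTCF peak (68.8%, 41.3 to 89.0%), against 82.1% over the list.

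The 3 factors overlapped RAD21 or CTCF at 10 of their 26 S-phase peaks. By factor this was 4 of 12 for HNF4A (33.3%, 9.92 to 65.1%), against 23.5% of its list, 3 of 5 for KLF5, against 37.7%, and 3 of 9 for MYC, against 38.1%. More of them met another factor: 6 of 12 HNF4A peaks, against 38.8% of the list, 4 of 5 KLF5 peaks, against 78.9%, and 6 of 9 MYC peaks, against 55.9%. Among the S-phase RAD21 peaks, 7 of 32 overlapped a factor (21.9%, 9.28 to 40.0%), against 17.4% of the list, and in M phase 1 of 25, against 4.23%. In M phase 1 of 2 HNF4A peaks overlapped RAD21 or CTCF, against 18.7%, 1 of 2 KLF5 peaks, against 18.7%, and 0 of 1 MYC peaks, against 31.0%. None of the M-phase factor peaks overlapped one of another factor, against 9.82% for HNF4A, 13.5% for KLF5 and 12.4% for MYC.

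Cohesin or CTCF was listed in M phase at 5 of the 12 S-phase HNF4A peaks (41.7%, 15.2 to 72.3%), against 18.4% of the list, 4 of them at AXIN2 and 1 at CCND1. For KLF5 this was 2 of 5, against 31.2%, and for MYC 2 of 9, against 31.8%. The M-phase RAD21 and CTCF peaks behind these counts all had an FDR above 5%. It was 8.26 to 11.83% at the HNF4A peaks, 6.29 and 8.89% at the KLF5 peaks, and 10.76 and 11.83% at the MYC peaks.

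When S-phase peaks of the 5 proteins were chained across gaps of at most 1000 bp, the windows held 38 clusters. Of these, 25 had 2 or more proteins (65.8%, against 56.4% of all S-phase clusters). RAD21 with CTCF alone made up 14 of the 25, and the other 11 contained a factor. In M phase 11 of the 14 cohesin and CTCF clusters had a RAD21 peak, 9 had a CTCF peak and 8 had both. Of the 11 with a factor, 8 had a RAD21 or CTCF peak in M phase, among them 1 at CCND1 that had neither in S phase. Among these 8, only the clusters at SOX9 and EPHB2 had such a peak with an FDR under 5%, and the others lay at 6.29 to 11.83%. A factor peak was listed in M phase at 2 of the 11, both at CCND1. The same shares over all S-phase clusters were not computed. The M-phase peaks formed 30 clusters, 12 of them with 2 proteins and none with more. That share of 40.0% stood against 50.2% of all M-phase clusters with 2 or more proteins, and 1.82% of all M-phase clusters had 3 proteins.

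At sites listed in both phases the scaled tags were lower in M phase for each of the 13 CTCF sites and for 18 of the 20 RAD21 sites. The median ratio of M to S phase was 0.342 for CTCF (range 0.219 to 0.642), with the upper bound of the interval below 1 at 12 of 13 sites, and 0.330 at the 19311 such sites of the whole list. For RAD21 it was 0.707 (range 0.398 to 1.31), with the upper bound below 1 at 7 of 20 sites, the lower bound above 1 at none, and 0.745 over 18670 sites; without scaling to library size the RAD21 median turned to 1.55. The 2 RAD21 sites above 1 were that of the 5-protein cluster at EPHB2, 1.19 (0.696 to 2.10), and that on the leading CTCF peak at CCND1, 1.31 (0.814 to 2.18). Called widths moved too. All 13 CTCF peaks were narrower in M phase (median 1612 bp to 943 bp), whereas RAD21 peaks were narrower at 5 of 20 sites (990 bp to 1145 bp). The fragment size that the caller estimated fell from 308 to 191 bp for CTCF and rose from 213 to 226 bp for RAD21. Its part in the widths was not tested. Per kb of called peak the medians were 0.573 for CTCF and 0.601 for RAD21, close to each other.

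**Figure D4:**
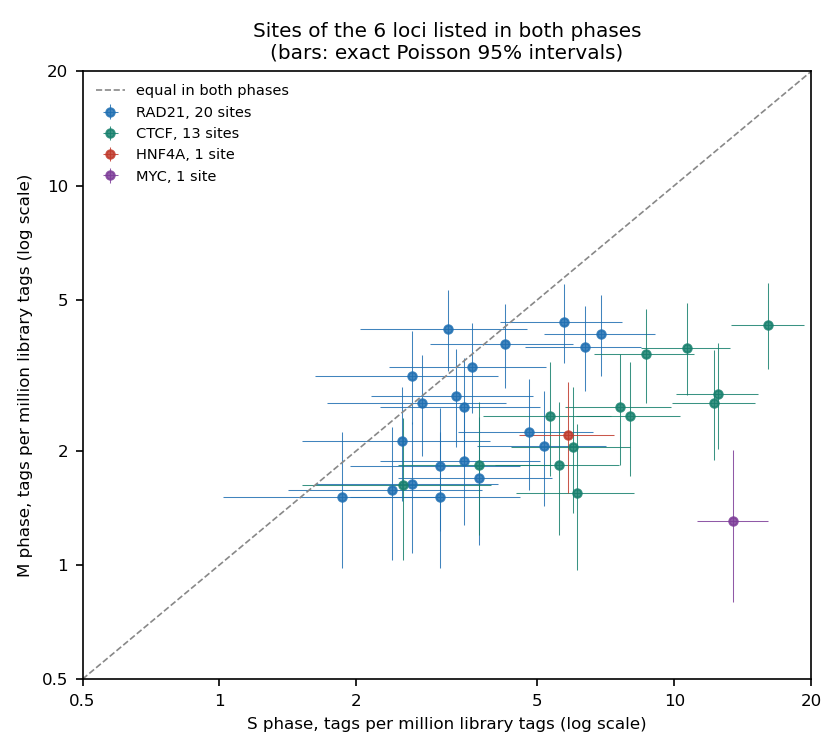
Tags per 1000000 library tags in S phase (horizontal, log scale) and M phase (vertical, log scale) at each site of the windows listed in both phases, with exact Poisson 95% intervals and a dashed line of equality. CTCF points lie well below the line (median ratio 0.342), RAD21 points nearer to it (0.707, but 1.55 without scaling to library size), and the MYC site lowest against its S-phase level (0.0968). Per kb of called peak the ratios were 0.573 for CTCF, 0.601 for RAD21 and 0.423 for MYC, and the MYC site was then not the lowest.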

How the data were processed

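Members and lists were chosen with earlier results of these data known. Per the submitters' processing notes, CASAVA 1.4, BWA, MACS 1.4 and build hg18 were used. Per the file headers, MACS 1.4.0rc2 compared each ChIP library with the IgG library of its phase at a p-value cutoff of 1e-05, keeping 1 tag per position. The tag counts deposited for a peak are raw. Its deposited score is a multiple of the negative log10 p-value. Fold enrichment, as deposited, is a ratio to the local IgG background, and FDR is a deposited percent.

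From these, overlaps, tags per 1000000 library tags, exact Clopper-Pearson, Poisson and conditional binomial intervals and clusters were computed in Python 3.11.15 (pandas 2.3.3, numpy 2.4.6, scipy 1.17.1, with matplotlib 3.10.9 for plots). The overlap step was tested on simulated data. All listed peaks were used. Alternatives covered score, FDR, overlap, window edge, H3 peaks, gaps and scaling. Named for each locus were the S-phase peak of highest fold enrichment per protein, every M-phase factor peak, the M-phase RAD21 and CTCF peak of highest fold enrichment, the cluster of most proteins and every H3 peak. Other peaks were named after their values were seen. Other genes of the pathway were not counted, since no hg18 annotation was used here.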

Additional observations from a re-analysis of the deposited data

How the results depend on the processing

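Of 80 alternative values, 54 were classed as the same, 25 as moved and 1 as reversed. The class of same was wide. With a score of at least 100 it took in falls from 22 to 15 S-phase CTCF peaks and from 9 to 6 of MYC. It also took in falls from 59.1 to 40.0% of CTCF kept and from 38.5 to 23.1% of S-phase factor peaks at RAD21 or CTCF. With an FDR under 5% it took in a fall from 62.5 to 43.8% of RAD21 kept. With a score of at least 100, S-phase peaks in the windows fell to 6 for HNF4A, 1 for KLF5 and 19 for RAD21, M-phase peaks to 14 for RAD21 and 0 for HNF4A, KLF5 and MYC, clusters of 2 or more proteins to 14, and kept shares to 0% for HNF4A and MYC. With an FDR under 5%, M-phase peaks fell to 14 for RAD21, 5 for CTCF and 0 for HNF4A, KLF5 and MYC, and kept shares to 26.7% for CTCF and 0% for HNF4A and MYC. With 50% of each peak shared MYC kept 0%, and with summits within 100 bp RAD21 kept 37.5%. Without scaling to library size the ratio of M to S phase was 0.160 for MYC, 0.644 for CTCF and, reversed, 1.55 for RAD21, since the libraries differ in size; per kb of peak it was 0.423, 0.573 and 0.601. The cause of the other changes was not tested. Taking peaks by their middle left 11 S-phase HNF4A peaks. Leaving out peaks at H3 could change no count, since no peak of the 5 proteins in the windows overlapped an H3 peak of its phase. An FDR under 5% could not lower the S-phase counts of HNF4A, KLF5, MYC and RAD21. The highest FDR of these lists was 3.17, 2.62, 1.94 and 1.44%. The kept share of KLF5, 0% in the main setting, could not fall. All these fixed values are among the 54 classed as the same, so that number does not measure robustness. No factor peak with a score of at least 100 or an FDR under 5% was left in M phase, so its overlap with RAD21 or CTCF had no value there. No paired analysis was possible because each target had 1 library per phase.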
